A study of Mus musculus with 3 samples.

Results

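TRIM genes, which encode the tripartite motif family of ubiquitin ligases, were followed across plasmacytoid dendritic cells (pDC), CD8+ conventional dendritic cells (CD8+ cDC) and CD11b+ conventional dendritic cells (CD11b+ cDC). Members were all genes with a probe set that names a single gene whose symbol is Trim followed by a number, whatever their values. This rule found 111 probe sets of 58 genes, out of 34958 single-gene probe sets of 18194 genes. The cells were sorted from spleens of naïve female C57bl/6 mice aged 6 to 8 weeks, after magnetic removal of T and B cells. RNA of 5 to 8 mice was pooled for each cell type, and 20 ng was labelled as amplified cRNA and hybridised to 1 Affymetrix array per cell type. With 1 array each there is no spread between samples, so no test was possible and animals, sort and amplification cannot be told apart from the cell type.

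A TRIM protein usually carries a RING domain, which recruits an ubiquitin-conjugating enzyme, followed by B-box and coiled-coil domains, through which the proteins assemble into dimers and larger arrays. The C-terminal domain sets what is bound, and the PRY-SPRY domain is the most common one. Several members are induced by interferon and act in antiviral defence, either by tagging sensors of viral RNA and DNA or by binding viral components. Plasmacytoid DC are known for releasing type I interferon, and conventional DC for presenting antigen to T cells.

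Values are the deposited intensities, called signals here. A background level of 111 was the 95th percentile of probe sets for olfactory, vomeronasal and taste receptors and their relatives, which spleen cells should not express. Signals below it were set to it before log2 was taken, and each gene was read at its brightest probe set. A gene was called higher or lower where 2 arrays differed 2-fold or more and the brighter one was above background. In pooled RNA, fewer cells of a type and less RNA per cell cannot be told apart. All 9 measured pDC markers were higher on the pDC array than on either cDC array. Of the CD8+ cDC markers, all 7 were higher in CD8+ cDC than in pDC and 6 of 7 higher than in CD11b+ cDC, the exception being Batf3, with 37688 in CD8+ cDC and 30189 in CD11b+ cDC. For CD11b+ cDC, 6 of 7 markers were lower in pDC, where Cd4 was 2.57-fold higher, and all 7 were lower in CD8+ cDC. As deposited, the sorted values of the 3 arrays nearly coincide, with a mean absolute log2 deviation of 0.011. The median log2 difference of all genes was 0.01, 0.00 and 0.01 in the 3 pairs as deposited. Scaled on the hybridization spike-ins instead, it was -0.30 between pDC and CD11b+ cDC, 0.65 between pDC and CD8+ cDC and -0.95 between CD8+ and CD11b+ cDC (each as first minus second), so differences are relative to the bulk of genes. The 3′ over 5′ ratio of the Actb control, a sign of RNA quality, was 5.71 in pDC, 4.08 in CD8+ cDC and 2.91 in CD11b+ cDC. That of Gapdh was 16.2 in pDC, 17.6 in CD8+ cDC and 9.68 in CD11b+ cDC, and the part of RNA quality in the differences was not tested.

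The share of the family above background was near that of all genes. Of the 58 genes, 38 (65.5%) were above background on any array, against 60.5% of all genes, and 34 were above it on all 3. By array the counts were 35 in pDC, 36 in CD8+ cDC and 35 in CD11b+ cDC, or 60.3%, 62.1% and 60.3%, while 56.8%, 57.1% and 57.2% of all genes were above background there. The 20 genes at background on all 3 arrays were Trim15, Trim16, Trim17, Trim29, Trim31, Trim40, Trim42, Trim43a, Trim47, Trim54, Trim60, Trim61, Trim63, Trim66, Trim67, Trim69, Trim71, Trim72, Trim75 and Trim80. They include the muscle ligase genes Trim54 and Trim63, the membrane repair gene Trim72 and the stem cell gene Trim71. Trim2, Trim6, Trim9 and Trim46 were above background on 1 or 2 arrays.

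Of the 38 measured Trim genes, 17 reached 2-fold in at least 1 pair of subsets, against 41.3% of all genes above background. None reached 10-fold in any pair at its brightest probe set. Genes at 2-fold or more above both other subsets numbered 7 in pDC, 2 in CD8+ cDC and 2 in CD11b+ cDC, while 10.4%, 4.38% and 3.16% of all genes had these patterns. Trim7 was the 1 member 2-fold below both others in pDC, a pattern of 8.56% of all genes. Trim3 and Trim30a were 2-fold below both others in CD11b+ cDC, a pattern of 1.66% of all genes, and 0 members had it in CD8+ cDC, where 3% of all genes did. Trim11, Trim37 and Trim68 passed in a pair without being high or low against both other subsets, as did 10.1% of all genes, and 21 members passed in none, against 58.7% of all genes.

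**Figure D1:**
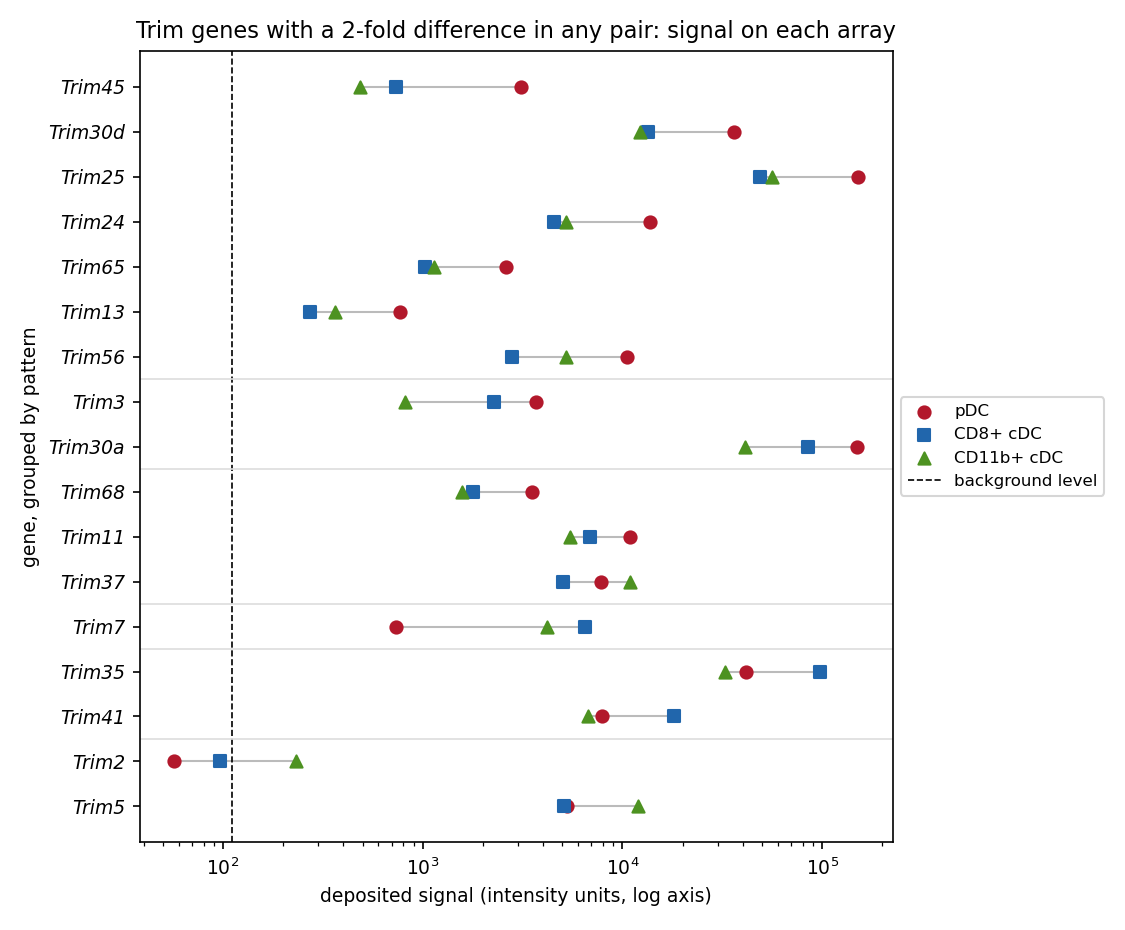
Signal (log axis) of the 17 Trim genes with a 2-fold difference in any pair, on the pDC (circles), CD8+ cDC (squares) and CD11b+ cDC (triangles) arrays, with the background level of 111 as a dashed line. Grey lines separate patterns: from the top, 7 genes high in pDC, 2 low in CD11b+ cDC, 3 that pass in 1 pair, Trim7, 2 high in CD8+ cDC and 2 high in CD11b+ cDC.

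Among regulators of nucleic acid sensing, Trim13, Trim25, Trim56 and Trim65 were 2-fold or more higher in pDC than in either cDC subset. From a list of 12 such regulators, 10 were on the array and 9 above background, with Trim31 at background. Of the 9, 4 were higher in pDC than in CD11b+ cDC and the same 4 higher than in CD8+ cDC, where 15% and 16% of all genes were, and 0 were lower in either pair, where 14.3% and 14.8% of all genes were. With spike-in scaling, 3 of the 4 fell below 2-fold against CD11b+ cDC, at log2 differences of 0.73 for Trim13, 0.65 for Trim56 and 0.83 for Trim65. The list's median log2 difference was 0.85 for pDC minus CD11b+ cDC, where it was 0.01 for all genes. For pDC minus CD8+ cDC it was 0.77, where it was 0.00 for all genes. The list was chosen with earlier results of these data known, so its counts and medians are description only. Trim25, whose protein ubiquitinates the RNA sensor RIG-I, gave signals of 151818 in pDC, 48678 in CD8+ cDC and 56073 in CD11b+ cDC. The pDC array was 3.12-fold above CD8+ cDC and 2.71-fold above CD11b+ cDC, and the cDC arrays differed 1.15-fold. Another of its probe sets, at 55998.5 in pDC, 20157 in CD8+ cDC and 22145 in CD11b+ cDC, was also past 2-fold in both pairs, and the third, at 4161 in pDC, 2437 in CD8+ cDC and 2157 in CD11b+ cDC, was not.

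Trim56, an interferon-inducible regulator of DNA and RNA sensing, gave 10515 in pDC, 2784 in CD8+ cDC and 5227 in CD11b+ cDC. It was 3.78-fold higher in pDC than in CD8+ cDC, and 2.01-fold higher than in CD11b+ cDC, at the edge of the size rule. Trim65, known for ubiquitinating the RNA sensor MDA5, gave 2611 in pDC, 1026 in CD8+ cDC and 1145 in CD11b+ cDC, or 2.55-fold and 2.28-fold higher in pDC. Trim13, a ligase of the endoplasmic reticulum membrane, gave 772 in pDC, 272 in CD8+ cDC and 365 in CD11b+ cDC, or 2.84-fold and 2.12-fold higher in pDC, and fell below 2-fold with a stricter background level. These 3 genes each have a single probe set, and the cDC subsets differed less than 2-fold at each of them. Of the other 5, the cytosolic antibody receptor gene Trim21 was the most even, with 14031 in pDC, 15463 in CD8+ cDC and 13876 in CD11b+ cDC. At their brightest probe sets, Trim23, Trim14, Trim27 and Trim32 differed at most 1.89-fold between any 2 arrays. The other measured probe set of Trim23 gave 533.3 in pDC, 267.5 in CD8+ cDC and 267.3 in CD11b+ cDC. There pDC was just under 2-fold above each cDC subset.

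Genes that these proteins act on were called in both directions, in shares near or below those of all genes. Of 26 measured genes of a list of 30 targets and partners of TRIM proteins, 3 were higher and 4 lower in pDC than in CD11b+ cDC (median -0.21), where 15% and 14.3% of all genes were. Against CD8+ cDC, 3 were higher and 2 lower in pDC (median 0.14), where 16% and 14.8% of all genes were. Ddx58, encoding the RIG-I target of Trim25, gave 185 in pDC, 158.5 in CD8+ cDC and 9927 in CD11b+ cDC, so that the array highest for the ligase was 53.6-fold below CD11b+ cDC for the sensor. Ifih1, encoding the MDA5 target of Trim65, gave 19213 in pDC, 18280 in CD8+ cDC and 70537 in CD11b+ cDC. The DNA sensor gene Cgas gave 572 in pDC and 6778 on each cDC array, or 11.9-fold lower in pDC. Irf7, a driver of interferon transcription, stood on the other side with 31744 in pDC, 6648 in CD8+ cDC and 8613 in CD11b+ cDC, and the kinase gene Ikbke was 6.59-fold and 5.40-fold higher in pDC than in CD8+ and CD11b+ cDC. Irf8, a lineage factor of CD8+ cDC and pDC, gave 646349 in pDC, 534491 in CD8+ cDC and 11554 in CD11b+ cDC, and the inflammasome gene Nlrp3 gave 316.5, 439 and 750 in that order. Sp100, a nuclear body gene, was 2.30-fold higher in pDC than in CD8+ cDC, and the interferon regulatory factor gene Irf5 was 2.88-fold lower. Between the cDC subsets, Irf8 was higher in CD8+ cDC, and Ddx58, Ifih1 and the heterochromatin gene Cbx5 (2.85-fold) were lower.

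Several interferon-inducible members lie in a cluster of PRY-SPRY genes on chromosome 7, where neighbouring copies have closely related upstream sequence. The upstream stretches printed here were chosen because each holds the core of the interferon-stimulated response element, which is GAAA, any 2 bases and GAAA again, searched on both strands. They are the 250 bases before the start of transcription, 5′ to 3′ on the strand of the gene, from RefSeq on build GRCm38.p6, with the match in capitals. Trim30a is at chr7:104465194-104465443 (minus strand), Trim30d at chr7:104507850-104508099 (minus strand), Trim5 at chr7:104288107-104288356 (minus strand), Trim12c at chr7:104353350-104353599 (minus strand) and Trim26 at chr17:36836896-36837145 (plus strand). In each of the 5 the capitals read as the reverse complement of the core, and Trim26 holds 2 overlapping matches. RefSeq gives Trim30a another start, with the upstream stretch chr7:104446126-104446375 (minus strand), which holds no match and is not printed.
Trim30a: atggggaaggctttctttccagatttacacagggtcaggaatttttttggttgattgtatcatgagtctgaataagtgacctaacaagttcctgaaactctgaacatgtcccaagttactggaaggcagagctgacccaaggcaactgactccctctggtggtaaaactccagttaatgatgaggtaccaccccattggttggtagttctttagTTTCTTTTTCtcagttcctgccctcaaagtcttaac
Trim30d: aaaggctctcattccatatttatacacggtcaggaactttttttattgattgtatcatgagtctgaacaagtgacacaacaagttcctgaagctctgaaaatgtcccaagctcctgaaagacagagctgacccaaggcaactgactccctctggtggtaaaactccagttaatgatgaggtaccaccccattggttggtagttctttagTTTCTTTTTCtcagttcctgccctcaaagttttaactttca
Trim5: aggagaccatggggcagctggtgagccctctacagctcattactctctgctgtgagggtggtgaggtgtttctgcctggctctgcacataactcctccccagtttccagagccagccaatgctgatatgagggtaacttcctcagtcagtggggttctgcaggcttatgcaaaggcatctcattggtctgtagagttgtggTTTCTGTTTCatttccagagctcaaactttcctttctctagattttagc
Trim12c: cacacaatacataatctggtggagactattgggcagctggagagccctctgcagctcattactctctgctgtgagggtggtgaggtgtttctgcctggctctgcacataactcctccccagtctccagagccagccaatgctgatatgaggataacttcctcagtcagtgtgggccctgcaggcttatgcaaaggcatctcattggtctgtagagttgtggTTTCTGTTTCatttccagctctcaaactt
Trim26: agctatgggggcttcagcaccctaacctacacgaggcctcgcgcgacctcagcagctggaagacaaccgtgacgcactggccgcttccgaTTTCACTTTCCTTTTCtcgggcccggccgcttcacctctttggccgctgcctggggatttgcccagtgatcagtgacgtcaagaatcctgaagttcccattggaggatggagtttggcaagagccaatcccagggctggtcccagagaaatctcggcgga

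RefSeq windows were matched for 47 of the 58 Trim genes. Of these, 5 (10.6%) held the core in the 250 bases before the start, against 3.46% of 27025 genes. When the 50 bases after the start were included, 9 Trim genes (19.1%) held it, against 3.99% of all genes, the additional ones being Trim12a, Trim34a, Trim21 and Trim2. Of the 12 matched Trim genes on chromosome 7, 7 held it, and of the 35 on other chromosomes, 2 did. The stretches of Trim30a and Trim30d were identical at 226 of 245 aligned bases (92.2%), and those of Trim5 and Trim12c at 219 of 230 (95.2%), so these matches are not separate observations. An E-box, spelled CAGNTG, was in the 250 bases of 31 of the 47 Trim genes (66.0%) and of 48.2% of all genes. A match describes letters in a window and no binding was measured.

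Members with the response element core did not share a pattern across the subsets. Trim30a, encoding a protein that restrains NF-kappaB signalling in mouse cells, gave 150059 in pDC, 85356 in CD8+ cDC and 40851 in CD11b+ cDC. Relative to CD11b+ cDC it was 3.67-fold higher in pDC and 2.09-fold higher in CD8+ cDC, and pDC and CD8+ cDC differed 1.76-fold. With spike-in scaling its log2 difference of CD8+ minus CD11b+ cDC was 0.069, below the rule. At its other probe set, pDC was past 2-fold over both cDC subsets and the cDC subsets were not, with 83223 in pDC, 38554 in CD8+ cDC and 31851 in CD11b+ cDC. Trim30d, the paralogue beside it, gave 35993 in pDC, 13491 in CD8+ cDC and 12304 in CD11b+ cDC, or 2.67-fold and 2.93-fold higher in pDC, and its other probe set passed in the same pairs. Trim30a and Trim30d are close paralogues, and how far their probe sets share signal was not tested.

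Trim5, the mouse relative of a retroviral restriction factor of primates, ran the other way within the same cluster. It gave 5296 in pDC, 5104 in CD8+ cDC and 11904 in CD11b+ cDC, so that CD11b+ cDC stood 2.25-fold above pDC and 2.33-fold above CD8+ cDC. Trim34a leaned the same way without passing the rule, with 30809 in pDC, 26135 in CD8+ cDC and 50842 in CD11b+ cDC. Trim12c, in the same cluster, was even at 32400 in pDC, 30710 in CD8+ cDC and 37211 in CD11b+ cDC. Trim12a gave 38364, 22269 and 29145 in the same order and also passed in no pair. Trim26 (5921 in pDC, 8423 in CD8+ cDC and 6056 in CD11b+ cDC) and Trim6 (at background in pDC and CD11b+ cDC, 138 in CD8+ cDC) passed in none either.

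Over the whole list of 12 measured interferon-inducible members, 4 of 11 were higher and 1 lower in pDC than in CD11b+ cDC. The shares of all genes were 15% and 14.3%, and the list's median log2 difference was 0.02. Among those higher, Trim25 and Trim56 are also on the list of sensing regulators, so the counts of the lists overlap. This list too was chosen with earlier results known. Against CD8+ cDC, 3 of 12 were higher in pDC and 0 lower (median 0.34), where 16% and 14.8% of all genes were. Between the cDC subsets, Trim30a was higher and Trim5 lower in CD8+ cDC, or 1 of 12 each way where 9.86% and 10.3% of all genes were called, with a median of -0.24. Among TRIM proteins that carry other gene symbols, the nuclear body gene Pml gave 23620 in pDC, 5194 in CD8+ cDC and 1554 in CD11b+ cDC, and was 15.2-fold higher in pDC than in CD11b+ cDC. Cmya5, a muscle gene, was above background in pDC alone, at 617, and at least 5.55-fold higher there than on either cDC array. Mefv, encoding the inflammasome sensor pyrin, gave 113 in pDC, 9754 in CD8+ cDC and 26982 in CD11b+ cDC, or 239-fold lower in pDC than in CD11b+ cDC. At the brightest probe sets, Pml and Mefv differed more widely than any member named Trim.

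At the brightest probe sets, the largest difference of the family was a lower signal in pDC at Trim7. Its protein was first described as a partner of glycogenin. Trim7 gave 737 in pDC, 6487 in CD8+ cDC and 4186 in CD11b+ cDC, or 8.80-fold and 5.68-fold lower in pDC. Its other 2 measured probe sets were dim, at 110 and 66.6 in pDC, 193.5 and 180 in CD8+ cDC and 204 and 210.5 in CD11b+ cDC. They were also lowest in pDC, where both lay below background, but no difference at them reached 2-fold above the background level. By the median over its probe sets Trim7 differed by -0.80 from CD8+ cDC and by -0.92 from CD11b+ cDC (log2).

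Trim45, which has a filamin-type domain and is known to restrain MAP kinase signalling, had the largest difference toward pDC. It gave 3114 in pDC, 739 in CD8+ cDC and 486.5 in CD11b+ cDC, or 4.21-fold and 6.40-fold higher in pDC. Trim3, an NHL-domain ligase studied mainly in neurons, was graded over the subsets, with 3702 in pDC, 2270 in CD8+ cDC and 816 in CD11b+ cDC. Relative to CD11b+ cDC it was 4.54-fold higher in pDC and 2.78-fold higher in CD8+ cDC, while pDC and CD8+ cDC differed 1.63-fold. With spike-in scaling its log2 difference of CD8+ minus CD11b+ cDC was 0.48, below the rule. Each of these genes has 1 probe set. Trim32, another NHL-domain ligase, gave 1075 in pDC, 631.5 in CD8+ cDC and 1192 in CD11b+ cDC and passed in no pair.

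The chromatin regulators with PHD and bromodomains split. Trim24, a coregulator of nuclear receptors that also targets p53, gave 13756 in pDC, 4539 in CD8+ cDC and 5206 in CD11b+ cDC, or 3.03-fold and 2.64-fold higher in pDC. Its other measured probe set gave 174 in pDC and lay at background on both cDC arrays. The related genes did not follow: Trim28, encoding the corepressor of KRAB zinc finger proteins, gave 24649 in pDC, 29922 in CD8+ cDC and 34322 in CD11b+ cDC. Trim33, a partner of SMAD signalling, gave 22003 in pDC, 22719 in CD8+ cDC and 23523 in CD11b+ cDC, within 1.07-fold across the 3 arrays.

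Trim35 and Trim41 were the members 2-fold or more higher in CD8+ cDC than in both other subsets. Trim35, a PRY-SPRY ligase, gave 41523 in pDC, 97401 in CD8+ cDC and 32679 in CD11b+ cDC, with CD8+ cDC 2.35-fold above pDC and 2.98-fold above CD11b+ cDC. Its other measured probe set ran the same way more steeply, with 243 in pDC, 2311 in CD8+ cDC and 126 in CD11b+ cDC. There CD8+ cDC was 9.52-fold above pDC and 18.3-fold above CD11b+ cDC, whose signal was near background. Trim41, known for ubiquitinating protein kinase C, gave 7916 in pDC, 18190 in CD8+ cDC and 6697 in CD11b+ cDC, or 2.30-fold and 2.72-fold higher in CD8+ cDC. Its dim probe set, at 248 in pDC, 475 in CD8+ cDC and 261 in CD11b+ cDC, stayed below 2-fold. With spike-in scaling neither gene reached 2-fold in CD8+ cDC: pDC minus CD8+ cDC was -0.59 for Trim35 and -0.56 for Trim41, and CD8+ minus CD11b+ cDC was 0.58 and 0.45 (log2).

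Trim2, like Trim5, was 2-fold or more higher in CD11b+ cDC than in both other subsets, and Trim37 passed against CD8+ cDC alone. Trim2, an NHL-domain ligase, was above background in CD11b+ cDC alone, at 232, and at 1 of its 6 probe sets. It was at least 2.08-fold higher there than in pDC or CD8+ cDC. Trim37, a ligase that acts at centrosomes and on histone H2A, gave 7794 in pDC, 5036 in CD8+ cDC and 10957 in CD11b+ cDC at its brightest probe set, with CD8+ cDC 2.18-fold below CD11b+ cDC. All 5 of its probe sets were lower in CD8+ cDC than in CD11b+ cDC, 4 of them by 2-fold or more. For pDC against CD11b+ cDC, 3 of the 5 were past 2-fold lower in pDC although the brightest was not, and for pDC against CD8+ cDC they ranged from -0.71 to 1.53 (log2).

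Some markers of other cells were also brighter on the CD11b+ cDC array. All 8 red pulp macrophage markers were above background on every array and their signals summed to 37073 in pDC, 90542 in CD8+ cDC and 166129 in CD11b+ cDC. Of these, C1qa, C1qb, C1qc, Adgre1 and Cd5l were brightest in CD11b+ cDC, and Spic, Vcam1 and Hmox1 in CD8+ cDC. All 6 measured neutrophil markers were above background, with sums of 2431 in pDC, 1299 in CD8+ cDC and 16374 in CD11b+ cDC. Of 7 measured B cell markers, 3 were above background on each array, with sums of 11421 in pDC, 21296 in CD8+ cDC and 93902 in CD11b+ cDC, while Cd79a, Pax5, Fcer2a and Ebf1 lay at background throughout. The B cell sum in CD11b+ cDC was mostly Cd22, at 78540, while Ms4a1 was brightest in CD8+ cDC and Cd79b in pDC. Of 6 measured T cell markers, Cd3d, Cd3e, Cd3g and Trat1 lay at background, and the sums were 728 in pDC, 823 in CD8+ cDC and 3217 in CD11b+ cDC, where Cd5 gave 2832. Of 5 measured NK markers, Ncr1, Prf1 and Nkg7 lay at background, and the sums were 647 in pDC, 1299 in CD8+ cDC and 1189.9 in CD11b+ cDC. The part of such cells in the values of Trim2, Trim5 and Trim37 was not tested. Trim10, a gene of erythroid cells, gave 975 in pDC, 793 in CD8+ cDC and 1186 in CD11b+ cDC, where 4 of 5 erythroid markers were above background, summing to 15711, 12043 and 18182, and Hba-a1 lay at background.

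Trim11 and Trim68, both PRY-SPRY ligases, passed in the comparison of pDC with CD11b+ cDC alone. Trim68, a coactivator of the androgen receptor, gave 3532 in pDC, 1783 in CD8+ cDC and 1572 in CD11b+ cDC, or 2.25-fold higher in pDC than in CD11b+ cDC, and its 1.98-fold difference from CD8+ cDC lay just outside the rule. Trim11 gave 10960 in pDC, 6853 in CD8+ cDC and 5443 in CD11b+ cDC, and its 2.01-fold difference from CD11b+ cDC lay just inside it. With spike-in scaling neither reached 2-fold against CD11b+ cDC, at log2 differences of 0.65 for Trim11 and 0.81 for Trim68. At the brightest probe sets, members without a 2-fold pair included Trim23, Trim39, Trim44 and Trim8, which were brightest in pDC. Trim14, Trim36 and Trim59 were brightest in CD11b+ cDC. The other probe set of Trim36 was brightest in pDC instead, with 598 there, 539 in CD8+ cDC and 488.5 in CD11b+ cDC. Of the dim probe sets of Trim44, that at 368 in pDC was also brightest there. Another was brightest in CD8+ cDC, at 333 against 313 in pDC. Trim36 came to 4085 in pDC, 3212 in CD8+ cDC and 6200 in CD11b+ cDC, and Trim59 to 12352, 16332 and 22238 in the same order.

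**Figure D2:**
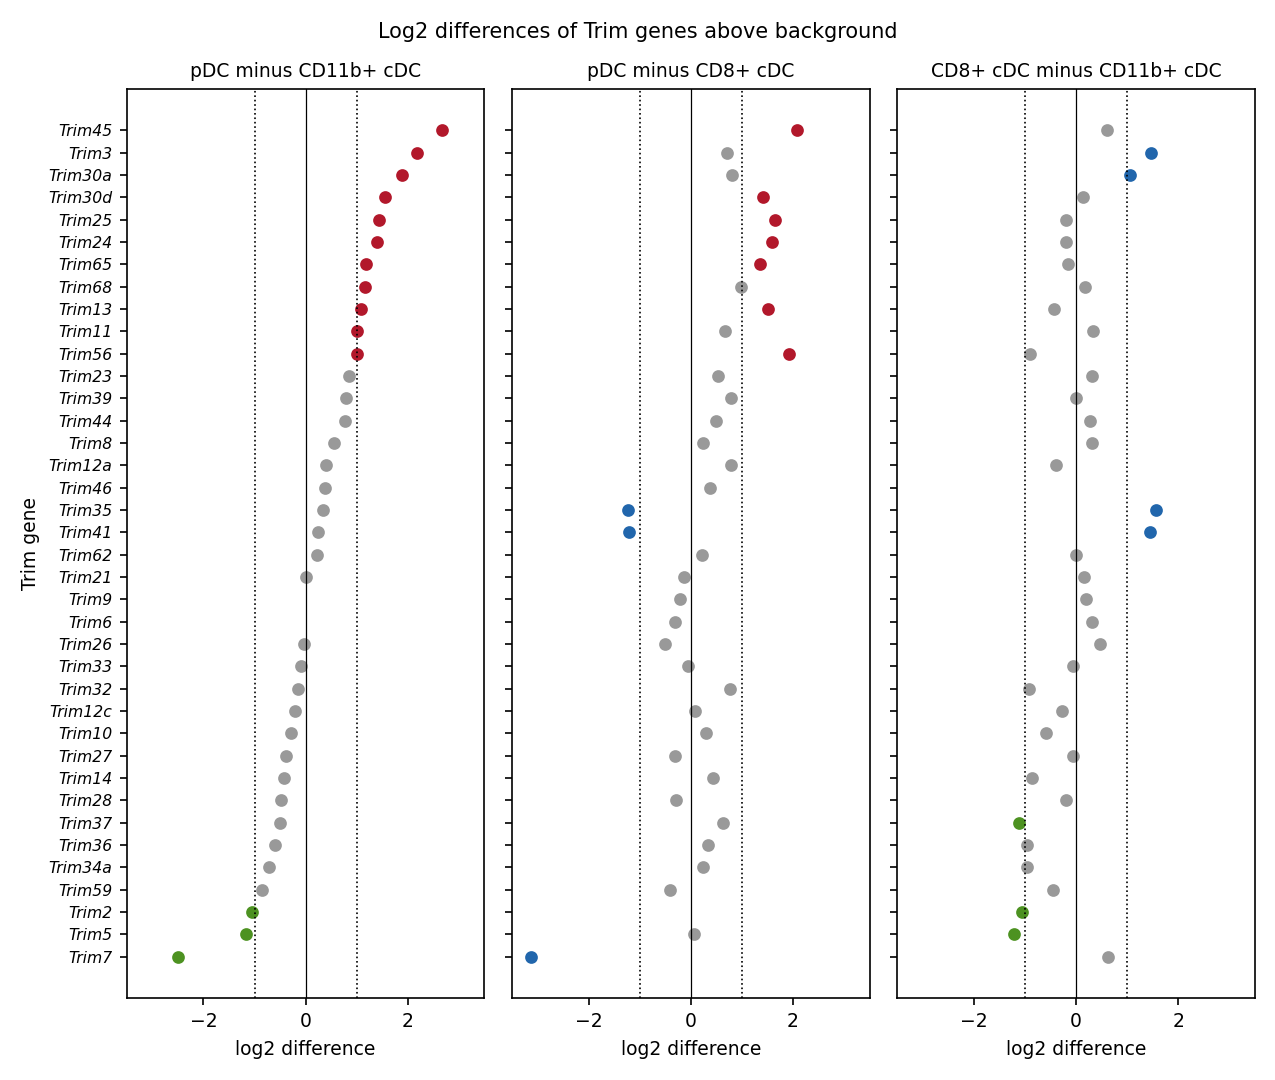
Log2 differences of the 38 Trim genes above background on any array, ordered by pDC minus CD11b+ cDC, in the 3 pairs of subsets. Dotted lines mark 2-fold, and coloured points pass the size rule toward pDC (red), CD8+ cDC (blue) or CD11b+ cDC (green), from 2.68 at Trim45 for pDC minus CD11b+ cDC to -3.14 at Trim7 for pDC minus CD8+ cDC.

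Counted over the family, pDC against CD11b+ cDC gave the most calls. Among the 36 Trim genes measured in that pair, 14 were called in either direction (38.9%, against 29.3% of all genes). Of these, 11 (30.6%) stood higher in pDC, where 15% of all genes were, and 3 (8.33%) were lower, where 14.3% of all genes were. The median log2 difference was 0.29 for Trim genes and 0.01 for all genes, and the median absolute difference 0.75 against 0.52. Differences of 10-fold or more, which 6.62% of all genes had, were found at 0 of the 36. With spike-in scaling the split of 11 higher and 3 lower became 6 and 5. The median turned to -0.062, which is 0.24 above the median of all genes on that scale. Of all-gene calls, 34.8% were higher in pDC on that scale, against 51.2% as deposited. The counts describe these 2 arrays.

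Against CD8+ cDC, 10 of 37 Trim genes were called (27.0%, against 30.8% of all genes). In pDC 7 (18.9%) were higher and 3 (8.11%) lower, where 16% and 14.8% of all genes were. The share higher was near the background, and 0 members reached 10-fold, as 6.89% of all genes did. The median log2 difference was 0.38 for Trim genes and 0.00 for all genes, while the median absolute difference was 0.54 for each. With spike-in scaling, the counts became 18 higher and 1 lower in pDC, and the median 1.08, or 0.43 above that of all genes. The scaling moved all genes the same way: 77.6% of all-gene calls were then higher in pDC, against 51.9% as deposited. Both comparisons use the same pDC array, so the 7 genes called toward pDC in each of them are not independent.

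Between the cDC subsets, 7 of 37 Trim genes were called (18.9%, against 20.1% of all genes). Of the 37, 4 (10.8%) were higher in CD8+ cDC and 3 (8.11%) lower, against 9.86% and 10.3% of all genes, so the family was called about as often as other genes. Those higher were Trim3, Trim30a, Trim35 and Trim41, and those lower Trim2, Trim5 and Trim37. The median log2 difference was -0.050 for Trim genes and 0.01 for all genes. At the brightest probe set 0 members reached 10-fold, as 3.26% of all genes did. Spike-in scaling left 0 higher and 19 lower, with a median of -1.06, or -0.11 relative to that of all genes. All genes moved the same way: 7.87% of all-gene calls were then higher in CD8+ cDC, against 49.0% as deposited.

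**Figure D3:**
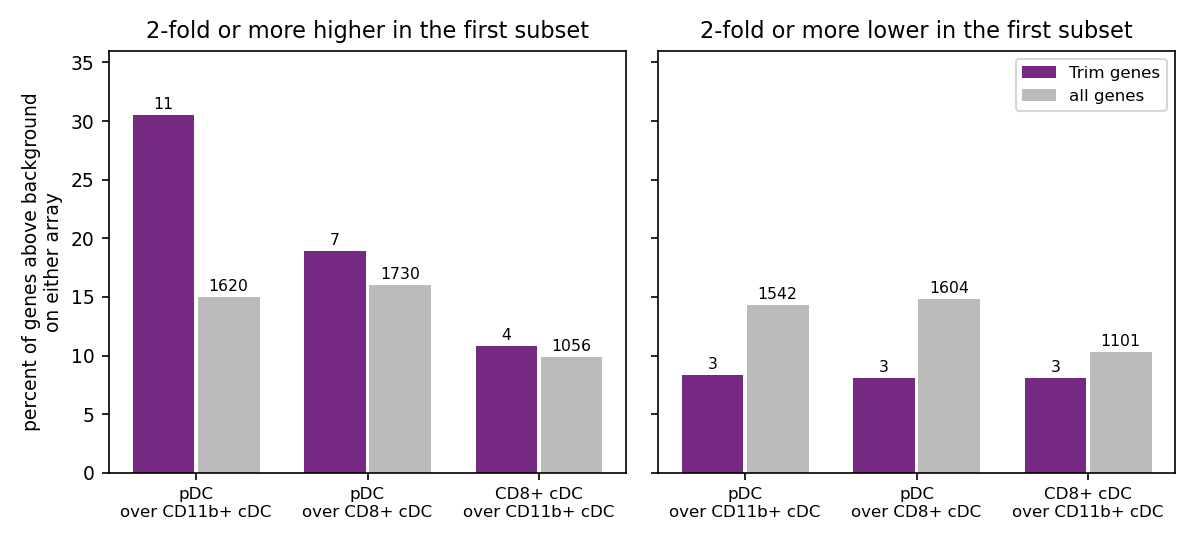
Percent of Trim genes (purple) and of all genes (grey) that were 2-fold or more higher (left panel) or lower (right panel) in the subset named above the other, among genes above background on either array, with the number of genes over each bar. The purple bar is 30.6% against 15% for genes higher in pDC than in CD11b+ cDC.

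By C-terminal domain, 21 of 30 measured PRY-SPRY genes were above background. For pDC against CD11b+ cDC, 6 of 20 were higher in pDC (Trim11, Trim25, Trim30a, Trim30d, Trim65 and Trim68) and 2 lower (Trim5 and Trim7), with a median log2 difference of 0.23, where 15% and 14.3% of all genes were called. Of the 6, Trim11, Trim65 and Trim68 fell below 2-fold with spike-in scaling. Against CD8+ cDC, 3 of 21 were higher in pDC and 3 lower (Trim7, Trim35 and Trim41; median 0.24), near the 16% and 14.8% of all genes. The 4 measured genes with NHL or filamin domains had a median of 1.02 for pDC minus CD11b+ cDC, with Trim3 and Trim45 higher and Trim2 lower. Neither of the 2 muscle-type genes was above background. Of 16 measured ubiquitin-conjugation genes, which supply the ligases with ubiquitin, 0 were higher in pDC in either pair, where 15% and 16% of all genes were. Their medians were -0.014 against CD11b+ cDC and -0.51 against CD8+ cDC. In each pair with pDC 2 were lower there, near the 14.3% and 14.8% of all genes. These 2 were Ube2n, the conjugating enzyme for non-degradative ubiquitin chains, with 3781 in pDC, 9512 in CD8+ cDC and 11709 in CD11b+ cDC, and Ube2e2, with 223, 2934 and 88867 in the same order, or 398-fold lower in pDC than in CD11b+ cDC. Between the cDC subsets, Ube2e2 was 30.3-fold lower in CD8+ cDC, and the SUMO gene Sumo3 was higher, with 104554 in CD8+ cDC and 49931 in CD11b+ cDC.

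How far probe sets of the same gene differ on these arrays can be read from genes with several probe sets. Of the Trim genes, 19 had more than 1 probe set above background on any array. Log2 differences of the brightest and next probe set differed with an SD of 0.58 over 17 Trim genes for pDC minus CD11b+ cDC, 0.84 over 19 for pDC minus CD8+ cDC and 0.85 over 18 for the cDC subsets, against 0.86, 0.89 and 0.74 over 4833, 4849 and 4807 genes of all kinds. A 2-fold difference is 1 on this scale, which is less than 2 such SDs. The SD is that of a difference between 2 probe sets, so it is not the error of a single value. It also holds no variation between animals, sorts or amplifications. Probe sets disagreed on a call for 4 of 17 genes (Trim7, Trim24, Trim25 and Trim37), for 6 of 19 (these and Trim30a and Trim41) and for 3 of 18 (Trim30a, Trim37 and Trim41) in the 3 pairs. In 0 of these cases were 2 probe sets called in opposite directions.

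**Figure D4:**
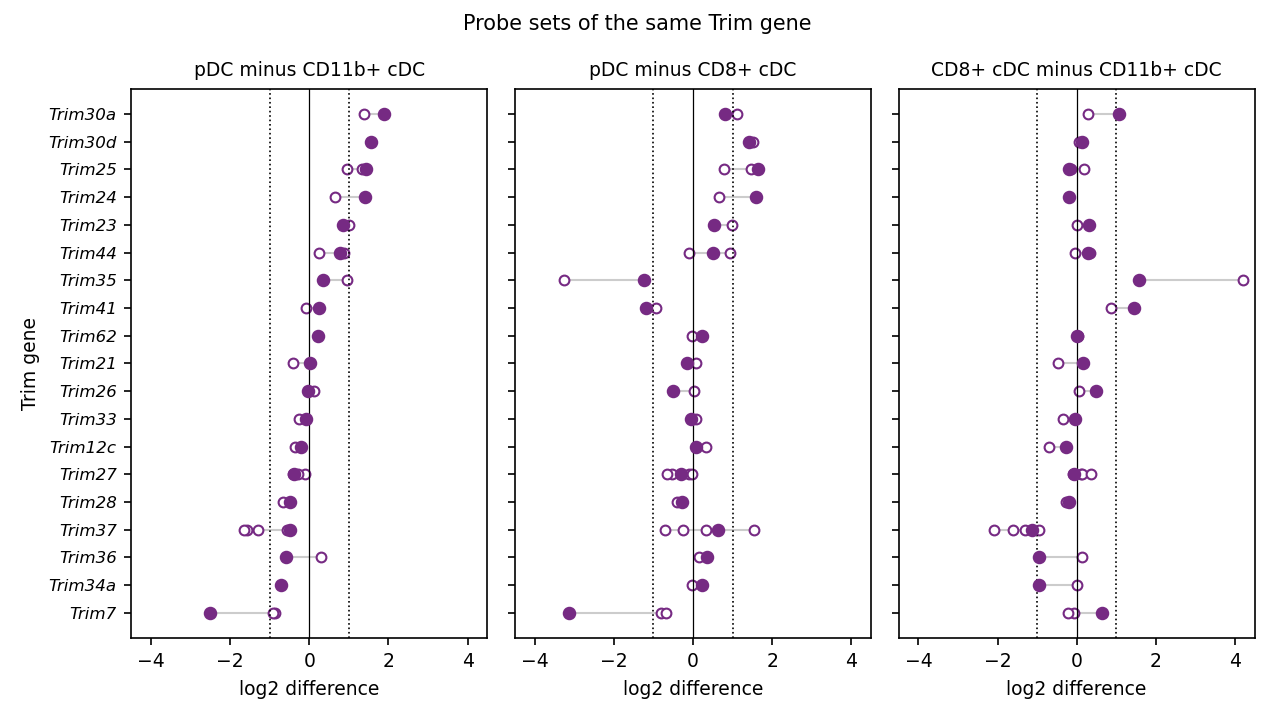
Log2 differences of each probe set above background for the 19 Trim genes with more than 1 such probe set, in the 3 pairs of subsets. Filled points are the brightest probe set, which the text uses, open points the others, and dotted lines 2-fold. Probe sets of Trim30d, Trim33 and Trim28 lie close together, while those of Trim7, Trim35 and Trim37 spread widely.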

How the data were processed

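The authors deposited a table of linear intensity values, with 45101 probe sets on each of the 3 arrays. The submitters' processing notes name MAS5 with no version, and the sources used here do not give any further scaling. RNA was pooled before hybridisation, per the labels, and the number of arrays (1 per cell type) limits the precision. Probe sets were named by the platform annotation, and all 58 Trim genes were found by gene number in the RefSeq table of GRCm38.p6. The background level came from 87 sensory receptor probe sets, of which 5 exceeded it on any array. No test fits 1 array per group, so genes were described by a 2-fold rule. That rule was checked on simulated data with known folds. With 1 array per cell type there is no spread between samples to build on, so the check gives no error rate for these data. Computation used Python 3.11.15, numpy 2.4.6 and pandas 2.3.3. The members, gene lists, motifs and alternatives were chosen with earlier results of these data known. All Trim genes at 2-fold or more in any pair are given with their values, as are genes whose probe sets disagreed. From the lists of partners, conjugation genes and other TRIM proteins, up to 4 genes at 2-fold or more are named per direction and pair. Values of Trim genes below 2-fold are given for contrast, chosen after their values were seen. Alternatives were scaling on 18 spike-in probe sets, the median over probe sets, leaving out probe sets with the suffix _x_at, _s_at or _a_at, the 99th percentile as background, no floor and a 3-fold rule.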

Additional observations from a re-analysis of the deposited data

Results flagged for a closer look

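Probe sets that name several genes were not used in the comparisons, and all 5 of those with a Trim symbol gave signals above background. The probe set shared by Trim30d and Trim30a gave 3349 in pDC, 1625 in CD8+ cDC and 1108 in CD11b+ cDC. The 2 probe sets shared by Trim34b and Trim34a were brightest in CD11b+ cDC, at 2486 and 638, with 1594 and 483 in pDC and 1349 and 422 in CD8+ cDC. The probe set shared by Gm38525 and Trim30b gave 1049 in pDC, 2406 in CD8+ cDC and 3357 in CD11b+ cDC, so it was 2.29-fold and 3.20-fold lower in pDC, opposite to Trim30a and Trim30d. The probe set shared by H2aw and Trim17 gave 4741 in pDC, 1301 in CD8+ cDC and 1278.5 in CD11b+ cDC, whereas the Trim17 probe sets proper lay at background. Which of the named genes gave these signals was not tested.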

How the results depend on the processing

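Of 31 called differences of single Trim genes, 0 changed direction under the 6 alternatives where they had a value. In each such alternative other than the 3-fold rule, 17 kept their call. The 3-fold rule, the 99th percentile and no floor cannot reverse a called difference at the same probe set. Nor can leaving out the floor remove a call there, so only the other alternatives bear on direction. Only 18 had a value without _x_at, _s_at and _a_at probe sets, and 29 at the 99th percentile. Among those kept, Trim3, Trim25, Trim30a, Trim45 and Trim56 have only probe sets with these suffixes, so leaving them out did not examine these genes. Trim2, also kept, was not examined either, because its probe sets without these suffixes lay at background. With spike-in scaling, Trim genes higher and lower numbered 6 and 5 for pDC over CD11b+ cDC (median log2 difference -0.062). They numbered 18 and 1 for pDC over CD8+ cDC (median 1.08) and 0 and 19 for CD8+ over CD11b+ cDC (median -1.06). Of all-gene calls on that scale, 34.8%, 77.6% and 7.87% were higher in these 3 pairs, in that order. With this scaling 11 called differences fell below 2-fold, including those of Trim35 and Trim41 in CD8+ cDC. Against CD11b+ cDC they were also Trim3 and Trim30a in CD8+ cDC, and Trim11, Trim13, Trim56, Trim65 and Trim68 in pDC. Without _x_at, _s_at and _a_at probe sets, 5 were higher in pDC than in CD11b+ cDC (median 0.016), the median for pDC minus CD8+ cDC was 0.27, and 1 was higher in CD8+ than in CD11b+ cDC. Fewer genes had a probe set left: 23 in pDC and 22 in CD11b+ cDC were above background. Trim41 then lost its 2 calls. With the median over probe sets, Trim7 fell below 2-fold in both its pairs and Trim30a between the cDC subsets. The 99th percentile as background gave a median of 0.50 for pDC minus CD8+ cDC, and Trim13 lost its 2 calls. At 3-fold, 3 were higher and 1 lower in pDC than in CD11b+ cDC. Against CD8+ cDC 4 were higher and 1 lower, and 0 were called either way between the cDC subsets. For these counts and those without _x_at, _s_at and _a_at probe sets, no share of all genes is given. They therefore do not show whether the family differs from other genes. The causes were not tested except that leaving out probe sets leaves fewer genes. No paired analysis was possible because each cell type has 1 array. Signals near the background level of 111, such as those of Trim2, Trim6, Trim9, Trim46 and Trim62, limit what a difference can show, and that of Trim2 is a bound.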
